A study of Mus musculus with 6 samples.

Results

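The lipid droplet genes examined here were 10 genes of liver, Plin2, Plin3, Plin4, Plin5, Cidea, Cideb, Cidec, Pnpla2, Pnpla3 and G0s2, out of 24239 gene symbols on a mouse expression array, and 13 of its 55681 different probes measured them. The rule that chose the probes used the symbol in the array annotation and no measured value. The arrays compared 3 control mice, gavaged with corn oil, with 3 mice given trichloroethylene (TCE), an industrial solvent, by the same route and vehicle. The dose was 1000 mg per kg of body weight and was repeated daily over 5 days. All were male B6C3F1 mice of 7 weeks, a hybrid strain, and liver RNA of each animal, labeled with Cyanine-3, had its own array, with no pooling. The question of the experiment was which liver mRNAs differ after TCE, and for these genes it becomes whether the coat of the droplet, its fusion proteins and its lipases moved together or apart.

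Lipid droplets store triglyceride as a neutral core under a single phospholipid layer. Perilipins coat this layer and control the access of lipases, CIDE proteins let small droplets fuse or donate lipid to larger ones, and adipose triglyceride lipase, encoded by Pnpla2, starts the breakdown of the stored triglyceride until G0s2 binds and inhibits it. In hepatocytes the amount of droplet and the mRNAs of several of these proteins follow feeding, fasting and agonists of the peroxisome proliferator-activated receptors (PPARs).

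The probes are single strands of 60 bases whose signal stands for one stretch of an mRNA, and for a gene with several probes the stretches can give different answers. The probes shown here belong to the fusion pair that split and to the inhibitor of the Pnpla2 lipase, and all letters are in lower case because no part of a probe was singled out. The second Cidec probe (A_55_P1969128) lies on chr6:113378116-113378175 of mm9, the minus strand, the dimmer Cideb probe (A_55_P2008056) on chr14:56373658-56373717, the minus strand, and the G0s2 probe (A_52_P681391) on chr1:195098925-195098984, the minus strand. Each of these has at least 1 forward reading frame without a stop codon. The brighter Cidec and Cideb probes, which represent their genes in the results below, have 0 such frames and are not printed. Exon and UTR positions were not analysed here.
Cidec: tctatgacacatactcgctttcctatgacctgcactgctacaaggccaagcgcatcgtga
Cideb: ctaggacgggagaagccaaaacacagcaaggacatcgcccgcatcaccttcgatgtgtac
G0s2: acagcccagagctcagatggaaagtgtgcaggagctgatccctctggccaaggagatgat

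The values are of 2 kinds. The signal is the log2 of the background-corrected intensity after quantile normalization, and the log2 fold change is the mean signal of the TCE mice minus that of the control mice, so that 1 stands for a doubling; its standard error (SE) comes from limma. A probe counted as detected if every array of either group had it well above background, which was so for 22731 probes, and it was past the threshold at a limma adjusted p of 0.05 or less with a fold change of 2 or more. Between 23537 and 24965 probes per array were well above background and 0 spots were saturated. Control mouse 1 was alone on its slide and the remaining 5 arrays were together on another, so that a shift between slides cannot be told apart from that mouse. With 3 mice per group the number of arrays limits the precision. In whole liver, fewer cells of a type and less RNA per cell cannot be told apart.

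Of the 10 genes, 9 were detected, and in all 9 the mean signal was higher in the TCE mice. Of all 22731 detected probes, 11902 were higher and 10829 lower. Cidec and Pnpla3 rose past the threshold, that is 2 of the 9, where 1.03% of all detected probes were past it in the same direction and 0.383% in the opposite one. Pnpla3 was detected through the TCE mice alone, so its presence among the 9 already requires it to be the higher in that group. Plin4 and Pnpla2 were also higher at an adjusted p under 0.05, but by less than 2-fold. That made 4 of the 9, where 1.43% of detected probes were higher at such a p with any fold change. In 7 of the 9 genes every TCE mouse lay above every control mouse, against 15.5% of all detected probes. The median log2 fold change of the 9 genes was 0.95, also with Pnpla3 set to the lower limit given below, and the median of all detected probes was 0.02. By size of the fitted log2 fold change, 0.603% of the detected probes lay above Cidec, 1.27% above G0s2, 2.38% above Plin2, 2.42% above Plin4, 2.56% above Pnpla2 and 6.70% above Plin5. Cideb and Plin3 were nearer the middle, with 27.5% and 29.1% above them. The count of 2 fell to 1 when any mouse except TCE mouse 2 was left out, each time through the loss of Pnpla3, as described with that gene.

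**Figure D1:**
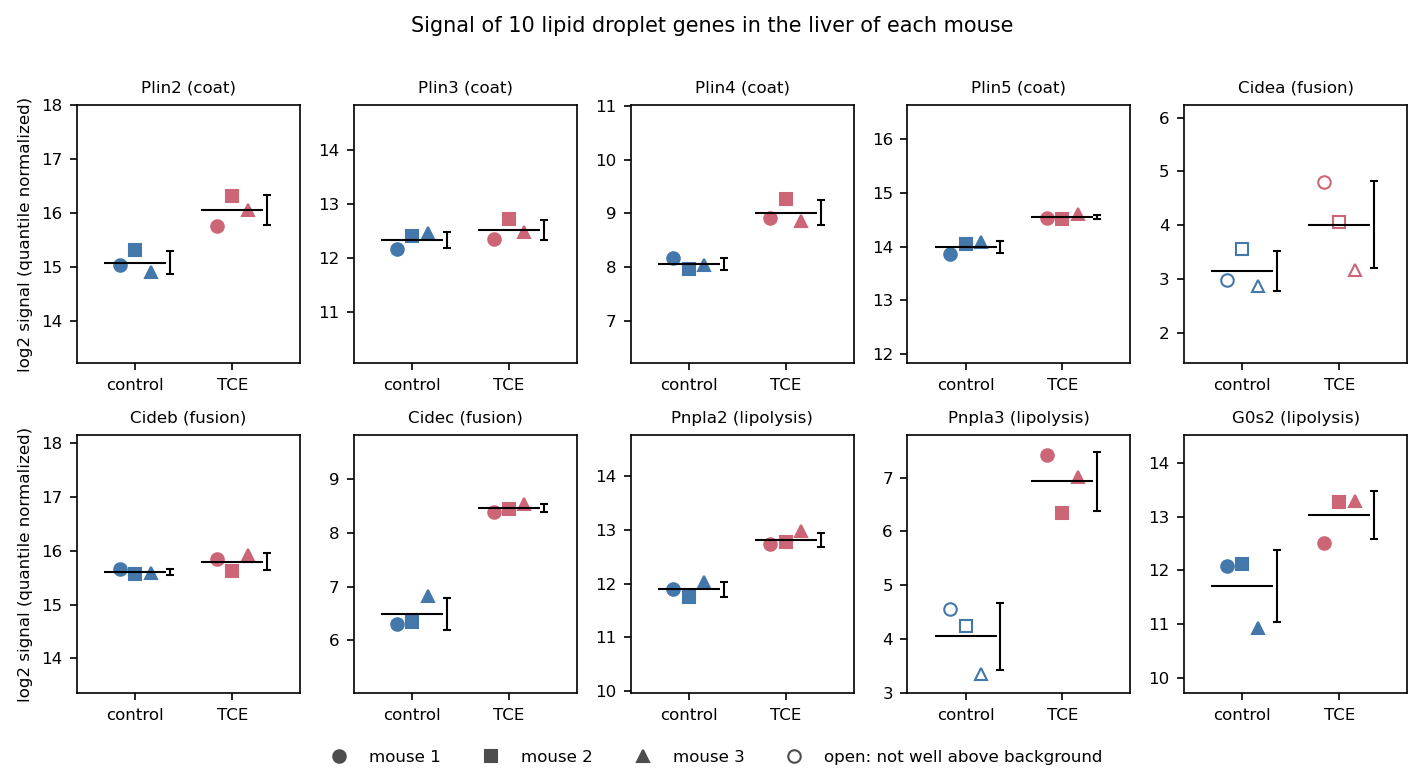
Quantile-normalized log2 signal (y axis, every panel spanning the same range) of the 10 genes in each control and TCE mouse, with the group mean as a line and the SD (n = 3) as a bar beside it. The groups did not overlap in any detected gene except Plin3 and Cideb, and the open symbols of Cidea and of the Pnpla3 controls were not well above background.

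The mRNAs of the coat proteins had higher mean signals in the TCE mice but stayed short of the threshold. All 4 perilipins were detected in every mouse, their median log2 fold change was 0.75, and 0 of the 4 were past the threshold by limma, while 1 (Plin4) had an adjusted p under 0.05. Plin2, the main perilipin of hepatocyte droplets and one that is degraded when it has no lipid to coat, had a signal of 15.04, 15.31 and 14.90 in control mice 1, 2 and 3 and of 15.76, 16.32 and 16.06 in TCE mice 1, 2 and 3. The lowest TCE mouse was above the highest control mouse. The means were 15.08 ± 0.21 and 16.05 ± 0.28 (SD, n = 3 each), a fold of 1.96 with a 95% confidence interval of 1.43 to 2.67 (limma adjusted p = 0.0648). The Plin2 difference therefore lay just outside the threshold on both the p and the fold.

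Plin5, a perilipin of tissues that burn fat, which can hold lipase and droplet close to mitochondria, had the smallest spread among the TCE mice. Its signal was 13.87, 14.04 and 14.09 in the control mice and 14.53, 14.52 and 14.60 in the TCE mice. The SD of the TCE mice was 0.04 (n = 3), and all of them were above the controls. The log2 fold change was 0.55 (SE 0.11), a fold of 1.47 (95% confidence interval 1.21 to 1.77, limma adjusted p = 0.0743).

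Plin4, a perilipin best known from adipocytes and muscle, had a signal of 8.17, 7.96 and 8.04 in the control mice and of 8.91, 9.27 and 8.85 in the TCE mice. The groups were separate, with TCE mouse 2 the highest. The means of 8.06 ± 0.11 and 9.01 ± 0.23 (SD, n = 3 each) differed by 0.95 on the log2 scale, a fold of 1.94 (95% confidence interval 1.50 to 2.50, limma adjusted p = 0.0374). This adjusted p rose to between 0.0648 and 0.156 when any of the 6 mice was left out.

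Plin3, the broadly expressed perilipin that moves between cytosol and young droplets, stood apart from the rest. Its signal was 12.17, 12.40 and 12.46 in the control mice and 12.36, 12.72 and 12.48 in the TCE mice, so that the groups overlapped. The fold was 1.13 with a 95% confidence interval of 0.884 to 1.44 (limma adjusted p = 0.582), an interval that leaves out a doubling but not a smaller difference in either direction.

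The genes of Plin4, Plin5 and Plin3 lie in the same region of chromosome 17. Their probes lie at 56240055 to 56240114 (Plin4), 56251025 to 56251084 (Plin5) and 56418429 to 56418488 (Plin3) of mm9, all on the minus strand, with 10.9 kb between the first pair and 167 kb between the second. The groups were separate for Plin4 and Plin5 and overlapped for Plin3, with log2 fold changes of 0.95, 0.55 and 0.18 in that order. For these genes a relation of fold change to position was not tested. The Plin2 probe, whose groups were also separate, lies away from them on chromosome 4 at 86302847 to 86302906, on the minus strand.

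The mRNAs of the fusion proteins split. Cidec, also called Fsp27, which enriches at droplet contact sites and drives the growth of large droplets in adipocytes and in fatty liver, rose nearly 4-fold. Its signal at the brighter probe (A_55_P1969131, chromosome 6, 113374630 to 113374689, minus strand) was 6.30, 6.35 and 6.82 in the control mice and 8.39, 8.45 and 8.53 in the TCE mice. The groups were far apart, and the TCE mice were closer to each other (SD 0.07, n = 3) than the controls (SD 0.29, n = 3), among which mouse 3 was the highest. The log2 fold change was 1.97 (SE 0.17), a fold of 3.91 (95% confidence interval 2.95 to 5.18, limma adjusted p = 0.00553).

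The second Cidec probe, the one printed above, was dimmer. It gave 3.42, 4.63 and 4.32 in the control mice, of which 1 of 3 was well above background, and 5.95, 5.79 and 5.44 in the TCE mice. The probe was detected through the TCE mice alone, and all of them were above all controls, at a fitted log2 change of 1.60 (SE 0.33, limma adjusted p = 0.074), which is not past the threshold. With normexp background correction and an offset of 50, which lifts low signals, the change of Cidec at the brighter probe was 1.40 on the log2 scale and still past the threshold. The Cidec call was kept in each of the 6 fits with 1 mouse left out, with log2 fold changes of 1.87 to 2.14 and adjusted p of 0.0105 to 0.035.

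Cideb, the CIDE protein of healthy hepatocytes, which acts in the lipidation of very-low-density lipoprotein, had a signal of 15.66, 15.57 and 15.59 in the control mice and of 15.85, 15.62 and 15.93 in the TCE mice at its brighter probe (A_66_P108685, chromosome 14, 56372942 to 56373001, minus strand). TCE mouse 2 lay below control mouse 1, so that the groups overlapped. The fold was 1.14 with a 95% confidence interval of 0.928 to 1.40 (limma adjusted p = 0.476). The dimmer probe printed above gave 13.07, 12.96 and 12.85 against 13.12, 12.94 and 13.04, a log2 change of 0.07 (limma adjusted p = 0.791).

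Cidea, which is typical of brown fat and appears in steatotic liver, was in no mouse well above background. Its signal was 2.98, 3.56 and 2.87 in the control mice and 4.80, 4.05 and 3.17 in the TCE mice, so no fold change is given. TCE mouse 3 lay below control mouse 2. The probe lies on chromosome 18 from 67527351 to 67527410 of mm9, the plus strand.

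The split between the CIDE mRNAs was also taken within each array, where a constant shift of all log2 values of that array cancels. Effects of quantile normalization or background correction that differ between dim and bright probes do not cancel. The log2 signal of Cidec minus that of Cideb was -9.37, -9.23 and -8.77 in the control mice and -7.46, -7.18 and -7.39 in the TCE mice. The levels of the 2 probes cannot be set against each other, but the shift between the groups can be read, and it was 1.78 (exact permutation test over the 20 regroupings of the mice, two-sided, p = 0.1, the smallest that 3 against 3 allows). The groups did not overlap. With 1 mouse left out the shift was 1.66 to 1.95, and with normexp it was 1.20.

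**Figure D2:**
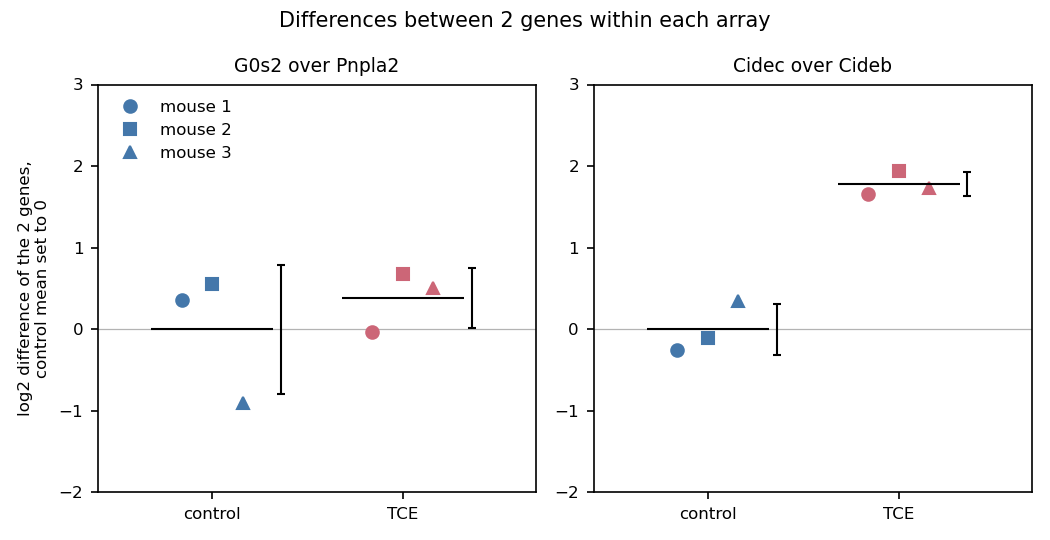
Difference of log2 signal between 2 genes of the same array (y axis, set to 0 at the control mean) for G0s2 minus Pnpla2 and Cidec minus Cideb, with group means as lines and SD (n = 3) as bars. The Cidec difference was separate in the groups, and the G0s2 difference overlapped, with control mouse 3 far below the rest.

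In the lipases and their inhibitor the TCE mice all lay above the controls, in 3 of 3 genes, against 15.5% of all detected probes, and the middle log2 fold change was 1.31. Pnpla3 is among the 3 only because it was detected in the TCE mice. Pnpla2, the lipase that takes the first fatty acid from triglyceride, had a signal of 11.91, 11.75 and 12.03 in the control mice and of 12.73, 12.77 and 12.97 in the TCE mice (chromosome 7, 148645928 to 148645987, plus strand). The means were 11.90 ± 0.14 and 12.82 ± 0.13 (SD, n = 3 each), and the difference of the means was several times the spread within the groups. The fold was 1.90 (95% confidence interval 1.53 to 2.36, limma adjusted p = 0.0285), under the 2-fold of the threshold. The adjusted p was 0.0686 to 0.125 with 1 mouse left out.

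G0s2, the inhibitor of that lipase, had a signal of 12.09, 12.12 and 10.94 in the control mice and of 12.51, 13.27 and 13.29 in the TCE mice. Control mouse 3 was more than 1 log2 unit below the other controls, and TCE mouse 1 was the lowest of its group, although still above every control. The means of 11.72 ± 0.67 and 13.03 ± 0.44 (SD, n = 3 each) gave the widest spread of any of these genes measured in both groups. The fold was 2.48 with a 95% confidence interval of 1.31 to 4.67 (limma adjusted p = 0.153), so that the difference did not pass despite its size. Without control mouse 3 the log2 fold change was 0.92 in place of 1.31.

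Whether the inhibitor moved more than its enzyme was asked within each array. The log2 signal of G0s2 minus that of Pnpla2 was 0.18, 0.37 and -1.09 in the control mice and -0.21, 0.50 and 0.33 in the TCE mice. The groups overlapped, with a shift of 0.38 (exact permutation test, two-sided, p = 0.6). Without control mouse 3 the shift was -0.07 (exact permutation test, two-sided, p = 0.9), so its sign rests on that mouse.

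Pnpla3, a close relative of Pnpla2 whose protein sits on droplets and whose mRNA follows feeding and insulin, went from background to a measurable signal. At its brighter probe it gave 4.55, 4.24 and 3.36 in the control mice, of which 0 of 3 were well above background, and 7.42, 6.35 and 7.02 in the TCE mice, of which 3 of 3 were. The lowest TCE mouse was well clear of the highest control. Against the lowest signal called well above background on each control array the rise was at least 4.44-fold, a limit that was not itself tested. The limma adjusted p of 0.0252 belongs to the fitted log2 fold change of 2.88, taken against controls at background. The limit of 4.44-fold holds for the processing used here and was not computed under the others. The call was kept without TCE mouse 2, the lowest of its group (adjusted p = 0.0382), and was lost without any one of control mice 1, 2 and 3 or TCE mice 1 and 3, with adjusted p of 0.0561 to 0.0985 and fitted log2 fold changes of 2.54 to 3.13.

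The second Pnpla3 probe (A_51_P389265, 84019823 to 84019882 of chromosome 15, plus strand) was not detected. Its signal was 4.73, 4.99 and 4.89 in the control mice, none well above background, and 5.98, 5.13 and 5.48 in the TCE mice, of which 2 were. The TCE mice were again all above the controls, with no test because the probe did not pass the filter. No lower limit of the fold is given, because not all TCE mice were well above background. With normexp the fitted log2 fold change at the first probe was 1.19, against 2.88 without it, since normexp with an offset shrinks differences from low signals.

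**Figure D3:**
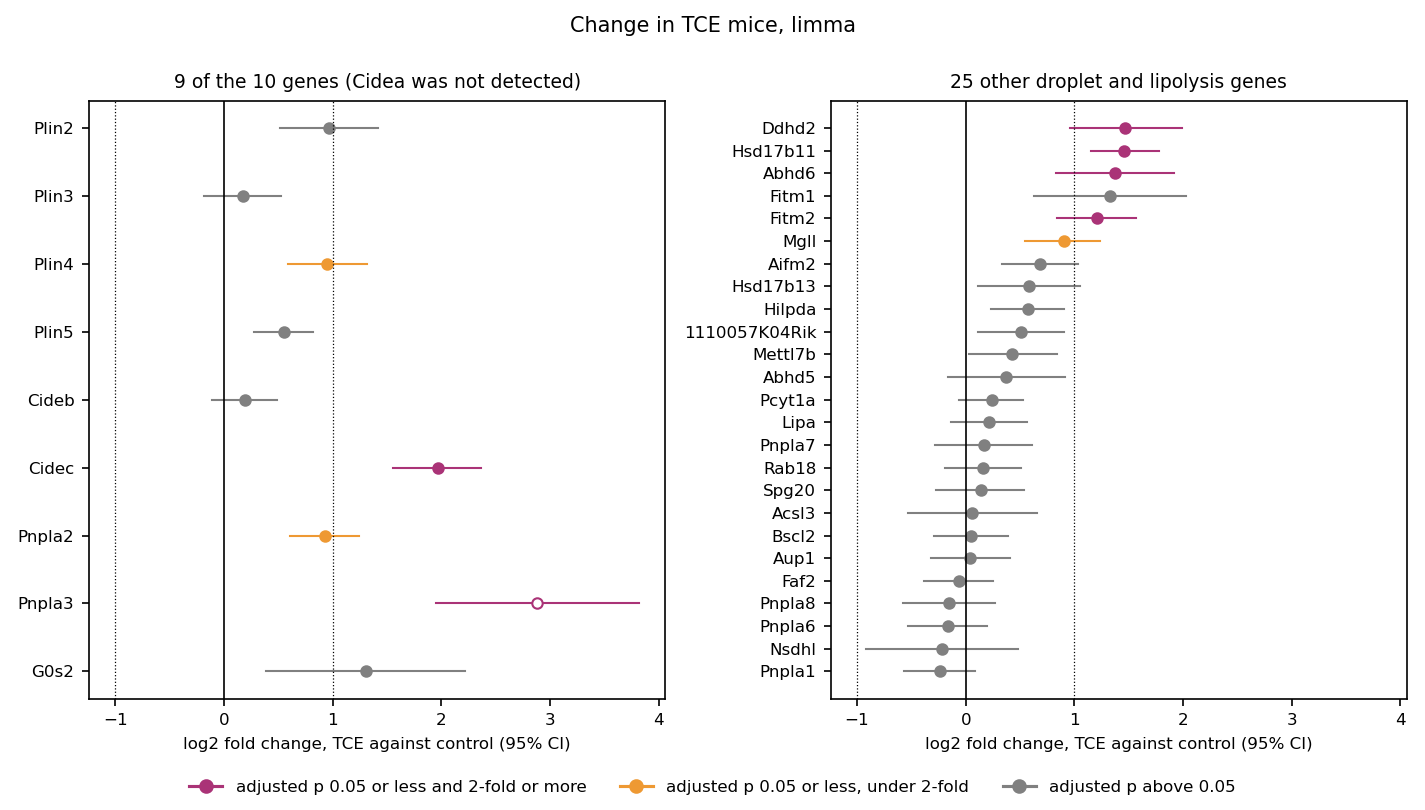
Log2 fold change (x axis, TCE against control) with its 95% confidence interval by limma for the 9 detected genes (left) and for 25 detected genes of a list of other droplet and lipolysis genes (right), dotted lines marking a 2-fold change. Cidec and Pnpla3 were past the threshold on the left, and Abhd6, Ddhd2, Fitm2 and Hsd17b11 on the right, and the open symbol of Pnpla3 is a fitted value against controls at background.

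A list of 30 other genes with a role on the droplet or in lipolysis was set beside these 10. Of the 25 that were detected, 20 were higher and 5 lower in the TCE mice, against 11902 higher and 10829 lower of all detected probes. The median of the 25 was 0.24 on the log2 scale. The 4 that were past the threshold all rose, which compares with the 1.03% of all detected probes given above. In 11 of the 25 the TCE mice were all above the controls, against the 15.5% of all detected probes. With any 1 mouse left out, 1 to 2 genes of the list were past the threshold in place of 4.

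Hsd17b11, a droplet-targeted member of the hydroxysteroid dehydrogenase family, had the smallest adjusted p of them. Its signal was 13.77, 13.76 and 13.64 in the control mice and 15.12, 15.38 and 15.07 in the TCE mice. The groups were far apart, at a log2 change of 1.46 (SE 0.13, limma adjusted p = 0.00625). Ddhd2, a triglyceride hydrolase best known from brain, had a signal of 7.96, 8.02 and 7.95 in the control mice and of 9.76, 9.60 and 8.98 in the TCE mice, with TCE mouse 3 lowest. Its log2 fold change was 1.47 (SE 0.21) (limma adjusted p = 0.0296), while its 2 dimmer probes gave 0.77 (adjusted p = 0.20) and 0.87 (adjusted p = 0.297) and were not past the threshold.

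Fitm2, an endoplasmic reticulum protein needed for droplets to bud, had a signal of 12.41, 12.41 and 12.80 in the control mice and of 13.86, 13.75 and 13.63 in the TCE mice. The log2 fold change was 1.21 (SE 0.15) (limma adjusted p = 0.0205) and 0.99 at its dimmer probe (adjusted p = 0.201). Fitm1, its relative in muscle, had a log2 change of 1.33 (SE 0.29), from 8.55 ± 0.57 to 9.88 ± 0.19 (SD, n = 3 each), and did not pass (limma adjusted p = 0.0879). All TCE mice were above all controls for both genes.

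Among the enzymes of later steps, Abhd6, a monoacylglycerol hydrolase, had a signal of 9.34, 8.74 and 9.32 in the control mice and of 10.57, 10.77 and 10.19 in the TCE mice. It rose by 1.37 on the log2 scale (SE 0.23, limma adjusted p = 0.0415), and its second probe gave 1.34 (adjusted p = 0.0446). Mgll, the main monoacylglycerol lipase, had a signal of 13.75, 13.70 and 13.84 in the control mice and of 14.63, 14.88 and 14.46 in the TCE mice, a fold of 1.86 (limma adjusted p = 0.0372) that stayed under 2. Its 2 dimmer detected probes gave log2 changes of 0.96 (adjusted p = 0.0578) and 0.85 (adjusted p = 0.0696). Abhd5, the coactivator of the Pnpla2 lipase and the counterpart of G0s2, gave 10.10, 9.98 and 10.63 against 10.61, 10.35 and 10.87. These groups overlapped, at a log2 change of 0.37 (SE 0.22, limma adjusted p = 0.436). A dimmer Abhd5 probe gave 0.43 (limma adjusted p = 0.50), also with overlap. Another gave 0.46 (limma adjusted p = 0.242), and there every TCE mouse was above every control.

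Lipe, the hormone-sensitive lipase, was well above background in 2 mice of each group and therefore not detected, with means of 5.47 ± 0.40 and 5.80 ± 0.80 (SD, n = 3 each). Plin1, the perilipin of adipocytes, was likewise not well above background on any array. The other genes with the smallest adjusted p were Aifm2, Hilpda and Ldah, the last under the symbol 1110057K04Rik on the array, with log2 fold changes of 0.68 (adjusted p = 0.0827), 0.57 (adjusted p = 0.114) and 0.51 (adjusted p = 0.185) by limma. At the dimmer probe of Aifm2, a droplet-associated oxidoreductase, the log2 fold change was 1.08 (limma adjusted p = 0.0365). The dimmer probe of Hilpda gave 0.56 (limma adjusted p = 0.103). That of Ldah gave 0.16 (limma adjusted p = 0.576), with groups that overlapped. Pnpla5, another lipase of the patatin family, chosen here after its values were seen, was well above background in 2 TCE mice and 0 control mice. Its signal was 6.72, 3.92 and 6.91 in the TCE mice. TCE mouse 2 was at background, so no lower limit of the fold is given, and the gene was not tested.

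Another view came from the gene ontology annotation of the array, taken up after the data were seen. The term for lipid particle held 43 genes of the array, among them 7 of the 10 genes, namely Cidea, Cidec, Plin2, Plin3, Plin4, Plin5 and Pnpla2. Of its other genes 32 were detected, with a median change of 0.11 on the log2 scale, and 1 of the 32, Hsd17b11, was past the threshold, where 1.03% of all detected probes were higher and 0.383% lower past it.

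The tissue was checked with marker lists of the cell types that liver could hold. The 5 hepatocyte markers were well above background in every mouse, with a summed linear signal of 1080000 to 1090000 in the control mice and 949000 to 1070000 in the TCE mice. Because Plin4, Cidec, Pnpla2 and G0s2 are also abundant in adipocytes, the adipocyte list bears on them. Of its 7 markers only Fabp4 was well above background in all mice, and its signal went from 9.89 ± 0.17 to 10.86 ± 0.20 (SD, n = 3 each; limma adjusted p = 0.0382, under 2-fold). Adipoq, Lep, Plin1 and Ucp1, which define fat cells, were not well above background on any array.

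Among the remaining adipocyte markers, Retn was well above background in 1 TCE mouse and Cfd in TCE mouse 3 alone, at 7.77 where the other mice had 2.99 to 4.20. The summed adipocyte signal was 902 to 1120 in the control mice and 1740 to 2420 in the TCE mice. Most of this sum was the signal of Fabp4 alone, and the median difference of the 7 markers was 0.01 on the log2 scale. The part of the adipocyte signal in the results was not tested. Without TCE mouse 3, the mouse with the high Cfd signal, the log2 fold change of Cidec was 1.93 (limma adjusted p = 0.0302). Fabp4 was above every control in TCE mice 1 and 2 as well. Leaving out TCE mouse 3 therefore cannot show whether adipocyte signal contributed to the Cidec difference. Among the stellate cell markers Lrat, which esterifies retinol for storage, went from 8.08, 8.56 and 7.85 to 7.01, 6.35 and 7.08, a separate and lower signal that did not pass (limma adjusted p = 0.0676). The 5 stellate cell markers matter because stellate cells carry droplets of their own. These markers summed to 21100 to 34000 in the control mice and 24800 to 30300 in the TCE mice. Most of the sum was Dcn, with a log2 change of 0.01 (limma adjusted p = 0.984). Reln gave -1.34 (limma adjusted p = 0.368) and Hgf -0.26 (limma adjusted p = 0.648), both with overlapping groups, and Des was not detected. The median difference of the list was -0.26. The Kupffer cell list of 6 summed to 13500 to 15400 and 12200 to 16800, the endothelial list of 4 to 10300 to 11800 and 6850 to 10300, and the lymphocyte list of 4 to 1860 to 1920 and 1320 to 1780. The 5 skeletal muscle markers were not well above background on any array. Among all these lists, 0 markers were past the threshold by limma, where 1.03% of all detected probes were higher and 0.383% lower past it. At these shares so few markers can give a count of 0, which therefore does not show that cell content was unchanged.

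The promoters were read for AGGTCA, the core letters recognised by nuclear receptors, the PPARs among them. RefSeq windows on GRCm38.p6, from 250 bases before to 50 after each start, were found for 9 of the 10 genes, all but Cidea, with 11 windows in all. The letters were present on one strand or the other in 3 of these 11 windows, 1 of Plin2 and both of Plin5, where 16.3% of 32851 windows hold them. A pair of copies of AGGNCA with 1 base between them, the layout of the full PPAR site, was in 0 of the 11 windows and in 0.381% of all. Both searches covered both strands, and they overlap where a copy in the pair has T at N. The 250 bases before the start are shown for the pair of genes with a match, with the match in capitals. For Plin2 the match reads TGACCT because it is on the opposite strand. The groups of both genes were separate, as were those of Plin4, Cidec, Pnpla2, Pnpla3 and G0s2, whose windows held no match. Plin2 is read from chr4:86670060-86670309 and Plin5 from chr17:56117549-56117798, both on the minus strand.
Plin2: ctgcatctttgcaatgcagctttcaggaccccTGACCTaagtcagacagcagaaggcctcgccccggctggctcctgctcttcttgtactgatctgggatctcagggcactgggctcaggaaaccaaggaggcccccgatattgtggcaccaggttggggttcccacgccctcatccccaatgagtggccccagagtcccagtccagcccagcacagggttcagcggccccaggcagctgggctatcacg
Plin5: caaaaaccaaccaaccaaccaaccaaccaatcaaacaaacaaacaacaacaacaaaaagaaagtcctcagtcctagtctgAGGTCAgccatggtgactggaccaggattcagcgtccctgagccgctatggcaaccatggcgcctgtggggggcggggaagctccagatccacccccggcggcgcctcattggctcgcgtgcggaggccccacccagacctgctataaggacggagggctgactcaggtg
Counted from the start, the match spans -218 to -213 in Plin2 and -170 to -165 in the Plin5 window shown, and 13 to 18 past the start in the other Plin5 window. A match of 6 letters is a description of the window and not a site, and windows without the letters say nothing of the receptor.

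Of the detected genes only Cidec kept an adjusted p under 0.05 in every limma fit that was run, and Plin3, Cideb and G0s2 were above 0.05 in every one. Plin2 passed below it with a trended and robust variance prior (adjusted p = 0.0318) and with normexp (adjusted p = 0.0419), and Plin5 with the former alone (adjusted p = 0.0298), all under 2-fold.

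**Figure D4:**
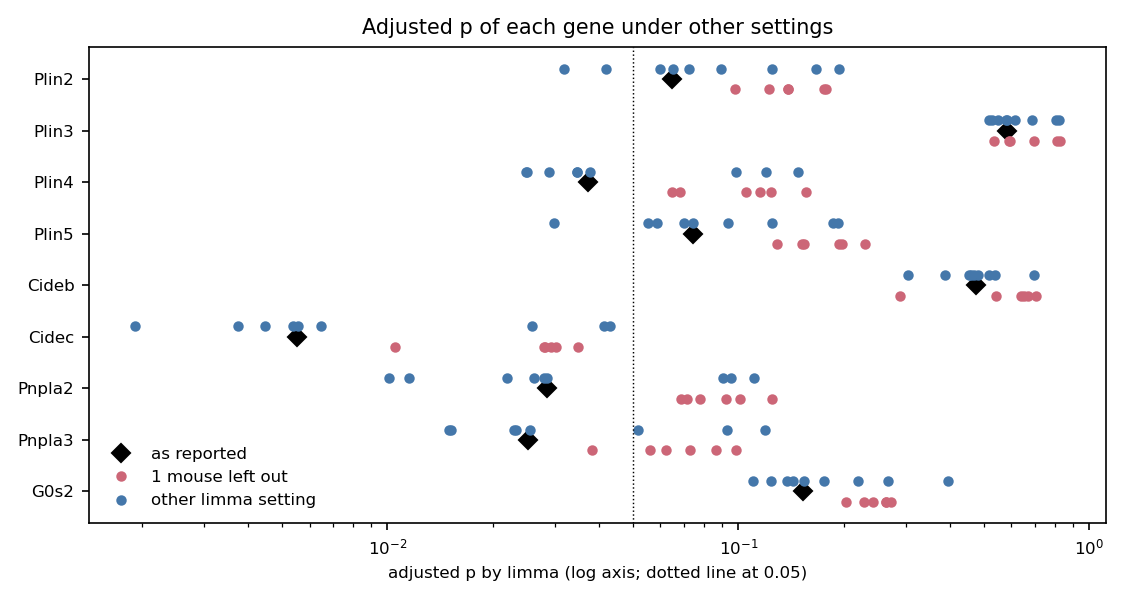
Adjusted p by limma (x axis, log scale, dotted line at 0.05) of the 9 detected genes as reported, with 1 mouse left out and under other limma settings. Cidec stayed left of the line throughout, Pnpla3, Pnpla2, Plin2, Plin4 and Plin5 have points on both sides, and Plin3, Cideb and G0s2 stayed right of it throughout.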

How the data were processed

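Liver RNA of 3 control and 3 TCE mice was hybridized to 1-colour arrays, 1 per mouse. The authors scanned them and deposited, from Feature Extraction 10.7.1.1, the processed intensity of every spot with background subtracted, the mean pixel and local background intensities, and spot flags. Their second deposited file gives the log2 mean of each group after quantile normalization, and gene annotation on mm9. The means were used as an alternative source, and 6 flag columns of single arrays were not used.

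Outlier spots (123 to 189 per array) were left out, processed intensities were taken to log2, spots of a probe were averaged, and arrays were quantile normalized over 55681 probes. Detected probes were tested with limma 3.58.1 (R 4.3.3, with statmod 1.5.0), using lmFit and eBayes with group alone in a two-sided test and Benjamini-Hochberg adjustment. limma replaced the methods' t-test. Within-array differences were tested by exact permutation over mice. For lower limits, each array of the dim group took the dimmest signal it called well above background, unless the probe itself was brighter. Of several detected probes, the brightest on average represented its gene. The procedure was tested on simulated data. Sequences are given for 3 of the 13 probes.

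All 10 genes were named, and of the other list Abhd5, Lipe, Mgll, Plin1, each gene past the threshold, and the 4 others with the smallest adjusted p. Pnpla5 was added after its values were seen. The genes, lists and tests were chosen with earlier results of these data known. The alternatives were another normalization, background correction, filter, variance model, test, source of values and probe rule, outlier spots kept, array weights, blocks for slide and replicate number, and each mouse left out. The precision of a value is set by the 3 arrays per group, and dim signals near background are measured less precisely than bright ones.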

Additional observations from a re-analysis of the deposited data

How the results depend on the processing

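Among 172 values of single genes under other settings, 160 kept direction and, where calls could be compared, side of the threshold. The authors' deposited group means and Cidea had no call to compare and were judged by direction and size alone. Another 11 values lost the call, all of them of Cidec or Pnpla3, the only genes with a call to lose. A further 1 gained it (G0s2, by the methods' t-test without adjustment) and 0 reversed. The 2 genes past the threshold became 1 with no filter on dim probes, 1 with only probes well above background on all 6 arrays, 1 with slide as a block, 1 with the mean over a gene's probes, 0 by the methods' t-test with adjustment, 4 with no minimum fold change, and 1 to 2 with 1 mouse left out. Cidec lost its call by the adjusted t-test and under the mean over probes, where its dimmer probe did not pass. Pnpla3 lost it with no filter (adjusted p = 0.119), with the slide block (0.0519) and by the adjusted t-test, and was not tested on the 6-array filter. The list of 30 went from 4 to 1 with no filter, 1 with the slide block, 2 with the mean over probes, 0 by the adjusted t-test, and 1 to 2 with 1 mouse left out. All probes went from 321 (234 higher) to 96 (78 higher) with no filter, where more probes share the adjustment, 177 (147 higher) with the slide block, 594 (388 higher) by the t-test without adjustment, 35 (31 higher) with it, and 124 to 242 with 1 mouse left out. The mouse numbers do not pair the animals: deviations of same-numbered mice correlated at 0.09, 0.01 and -0.09. With the replicate block, 1 of the 10 genes (Cidec, adjusted p = 0.0431, Pnpla3 0.0931), 0 of the list and 63 probes (56 higher) were past the threshold. The within-array shift of G0s2 over Pnpla2 was -0.07 to 0.66 with 1 mouse left out, negative without control mouse 3, and that of Cidec over Cideb 1.66 to 1.95. Causes were not tested unless given. Pnpla3 in controls and Cidea in all mice are limited by signal over background.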
